A study of Mus with 14 samples.

Results

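The 6 genes described here write and erase DNA methylation in mouse cells: the DNA methyltransferases Dnmt3a, Dnmt3b and Dnmt1, and the TET dioxygenases Tet1, Tet2 and Tet3. They were taken by name from the 32285 genes in the deposited matrices, with earlier results of these data known. Their levels were read in 14 single-cell RNA libraries of bone marrow progenitors, for each mouse, for each of 4 groups and for each lineage of cells.

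Dnmt3a and Dnmt3b add methyl groups to unmethylated CpG sites, and Dnmt1 copies methylation onto the new strand after DNA replication. TET enzymes oxidise methylcytosine, which starts its removal. DNMT3A and TET2 are the genes most often mutated in clonal hematopoiesis, in which the progeny of a mutant stem cell takes up a growing share of blood formation, and loss of either gene in mouse stem cells is known to favour their self-renewal.

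Each library came from 1 mouse and held sorted lineage-negative, Kit-positive, CD45.2-positive marrow cells. The groups were MxCre (3 mice), Dnmt3a (4 mice), Dnmt3a;Tnfr1KO (3 mice) and Dnmt3a;Tnfr2KO (4 mice), where Mx Cre is a recombinase gene switched on by interferon and Tnfr1 and Tnfr2 are the receptors of tumor necrosis factor alpha. All groups shared the same history: donor marrow was competed with CD45.1-positive marrow in aged, lethally irradiated hosts, a single poly(I:C) injection was given a month later, and marrow was passed to aged, irradiated secondary hosts and taken after 20 weeks. The labels do not give the Dnmt3a allele, nor which mice shared a donor, so p-values measure the spread between these recipients.

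After filtering, 66895 cells were kept, between 1924 and 7265 a library, with 5.79e+07 to 1.45e+08 unique molecular identifiers (UMIs, counts of single RNA molecules) a library. Kit and Ptprc, which encodes CD45, were detected in all 14 libraries, at 69.1 to 182 and 69.9 to 155 CPM (UMI counts scaled to a common library total). Tnfrsf1b, the gene of Tnfr2, was lower in Dnmt3a;Tnfr2KO than in Dnmt3a mice (5.05 ± 0.506 against 13.7 ± 1.39 CPM, SD, n = 4 each; edgeR adjusted p = 0.000523). Tnfrsf1a, the gene of Tnfr1, was not called lower than in Dnmt3a mice where the label is Dnmt3a;Tnfr1KO (38.3 ± 4.20 CPM, n = 3, against 43.6 ± 9.32, n = 4; edgeR adjusted p = 0.600), so the counts do not check that label. Dnmt3a replicate 1 stood apart, with 26.5% of its barcodes kept, and Dnmt3a replicate 4 held 1917 cells of the B progenitor gate. Pairs of libraries shared 2 to 23 barcodes.

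Each library gave 1351 to 4168 UMIs of Dnmt3a, 1055 to 3143 of Dnmt3b and 10303 to 25834 of Dnmt1. The TET genes gave 799 to 1815 UMIs of Tet1, 1293 to 4111 of Tet2 and 2150 to 4781 of Tet3. On build GRCm38.p6, the build of the RefSeq gene table, Dnmt3a (ENSMUSG00000020661) lies on chromosome 12 from 3801559 to 3914443, Dnmt3b (ENSMUSG00000027478) on chromosome 2 from 153649411 to 153687730 and Dnmt1 (ENSMUSG00000004099) on chromosome 9 from 20907206 to 20959888. Tet1 (ENSMUSG00000047146) lies on chromosome 10 from 62804570 to 62887469, Tet2 (ENSMUSG00000040943) on chromosome 3 from 133463677 to 133545136 and Tet3 (ENSMUSG00000034832) on chromosome 6 from 83362373 to 83457208. Reads come from transcript 3′ ends, so a UMI of Dnmt3a may stem from a recombined or an intact allele, and its level does not check the genotype.

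The first question was whether the transcript of the mutated gene, or of its relatives, differed between the groups when all cells of a mouse were summed. CPM here are scaled by TMM, which sets the typical gene equal between libraries. The Dnmt3a transcript stood at 22.3, 22.9 and 28.2 scaled CPM in the MxCre mice and at 32.8, 27.7, 29.8 and 31.5 in the Dnmt3a mice. It stood at 21.3, 22.1 and 22.4 in the libraries labelled Dnmt3a;Tnfr1KO, and at 24.3, 22.8, 25.1 and 22.6 in the Dnmt3a;Tnfr2KO mice. The Dnmt3a mice were thus the high group: all 4 lay above every mouse of both receptor groups, and 3 of 4 lay above every MxCre mouse. Of all genes tested, 8.12% were likewise lower in libraries labelled Dnmt3a;Tnfr1KO than in Dnmt3a mice with no overlap, and 5.33% in Dnmt3a;Tnfr2KO mice.

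In the edgeR fit over 15623 genes, Dnmt3a mice had 0.32 ± 0.097 (SE) more log2 Dnmt3a transcript than MxCre mice, with an adjusted p of 0.0830. The transcript was 0.47 ± 0.098 lower on the log2 scale in libraries labelled Dnmt3a;Tnfr1KO than in Dnmt3a mice (log2 fold change -0.47, edgeR adjusted p = 0.0517). In Dnmt3a;Tnfr2KO mice the log2 fold change against Dnmt3a mice was -0.36 ± 0.089 (edgeR adjusted p = 0.0677). None of the 3 passed the threshold of 0.05, while DESeq2 on the same sums gave adjusted p-values of 0.0427, 0.00174 and 0.0108. Scaling to UMI totals in place of TMM shifts the median of all genes by 0.09, -0.20 and -0.21 in these comparisons, and the Dnmt3a fold changes were then 0.40, -0.67 and -0.58 (edgeR adjusted p = 0.0817, 0.0366 and 0.0342). These comparisons share the same 4 Dnmt3a mice, so they are not independent of each other. Against MxCre, the transcript differed by -0.16 (log2) in libraries labelled Dnmt3a;Tnfr1KO and by -0.05 in Dnmt3a;Tnfr2KO mice (edgeR adjusted p = 0.587 and 0.835).

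**Figure D1:**
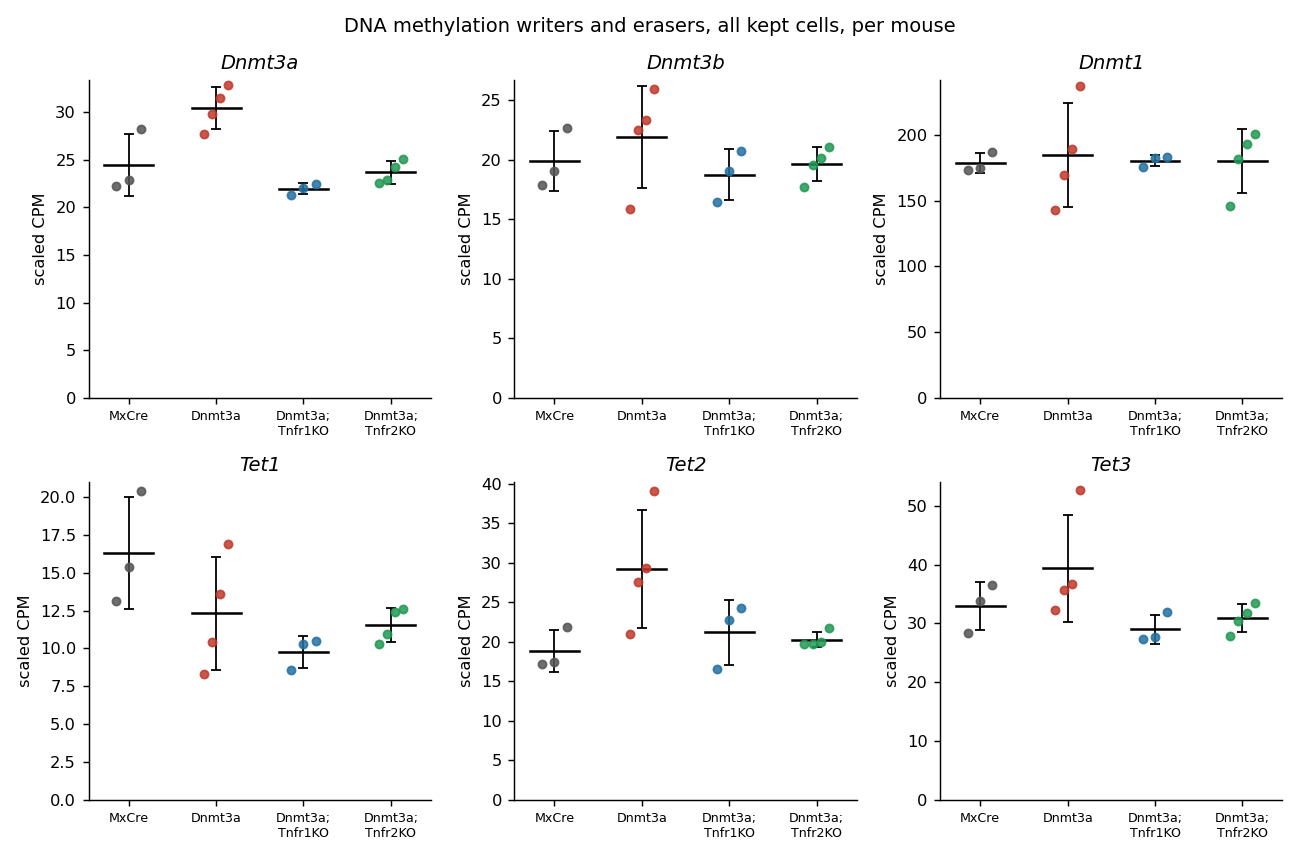
Scaled CPM of each gene over all kept cells (vertical axes, from 0) in the 4 groups (horizontal axes). Points are mice, bars are group means and whiskers are SD. For Dnmt3a, the 4 Dnmt3a mice (27.7 to 32.8) lie above all mice of both receptor groups (21.3 to 25.1).

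Across the 6 comparisons between groups, 0 of the 6 genes were called in sums over all cells by edgeR with TMM. The share of all genes called by edgeR was 2.41% for Dnmt3a against MxCre, 0.525% for Dnmt3a;Tnfr1KO against Dnmt3a and 0.819% for Dnmt3a;Tnfr2KO against Dnmt3a. It was 0.186% between both receptor groups, 0.326% for Dnmt3a;Tnfr1KO against MxCre and 0.442% for Dnmt3a;Tnfr2KO against MxCre. In the same order, DESeq2 on these sums called 2, 1, 2, 0, 1 and 0 of the 6, beside 9.94%, 6.41%, 6.96%, 0.679%, 3.22% and 2.8% of the genes to which it gave an adjusted p. At an unadjusted edgeR p below 0.05, 2 of the 6 genes (Dnmt3a and Tet2) passed for Dnmt3a against MxCre, beside 23.6% of all genes. For each receptor group against Dnmt3a 3 of 6 passed (Dnmt3a, Tet2 and Tet3), beside 19.7% of all genes for Dnmt3a;Tnfr1KO and 22.9% for Dnmt3a;Tnfr2KO. Between both receptor groups 0 of 6 passed, beside 3.99%. Against MxCre 1 of 6 passed for Dnmt3a;Tnfr1KO, beside 12%, and 1 of 6 for Dnmt3a;Tnfr2KO, beside 15.4%.

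Dnmt3b, the second de novo enzyme, showed no separation of the groups in sums over all cells. It lay between 17.9 and 22.7 scaled CPM in MxCre mice, 15.8 and 25.9 in Dnmt3a mice, 16.4 and 20.7 in libraries labelled Dnmt3a;Tnfr1KO and 17.7 and 21.1 in Dnmt3a;Tnfr2KO mice. The groups overlapped in all 6 comparisons. Its log2 fold change was 0.14 ± 0.15 for Dnmt3a against MxCre mice (edgeR adjusted p = 0.626).

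Dnmt1, the maintenance enzyme, had group means between 179 and 185 scaled CPM. They were 179 ± 7.59 in MxCre mice (SD, n = 3), 185 ± 39.8 in Dnmt3a mice (n = 4), 180 ± 4.16 in libraries labelled Dnmt3a;Tnfr1KO (n = 3) and 180 ± 24.3 in Dnmt3a;Tnfr2KO mice (n = 4). The Dnmt3a mice spread widest, from 143 in replicate 4 to 237 in replicate 1. All 6 log2 fold changes lay between -0.04 and 0.05, with edgeR adjusted p-values of 0.883 or more.

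Tet2, the TET gene that is recurrently mutated in blood cancers, was likewise highest on average in Dnmt3a mice, with more spread. It stood at 17.2, 21.9 and 17.5 scaled CPM in MxCre mice and at 39.1, 20.9, 29.4 and 27.5 in Dnmt3a mice. Libraries labelled Dnmt3a;Tnfr1KO gave 24.2, 16.5 and 22.8, and Dnmt3a;Tnfr2KO mice gave 19.7, 20.0, 21.8 and 19.7. Dnmt3a replicate 1 was the highest of all 14 mice, and Dnmt3a replicate 2 lay within the range of the other groups. The log2 fold change was 0.63 ± 0.18 for Dnmt3a against MxCre mice (edgeR adjusted p = 0.0739). Against Dnmt3a mice it was -0.46 ± 0.18 in libraries labelled Dnmt3a;Tnfr1KO (edgeR adjusted p = 0.193) and -0.53 ± 0.17 in Dnmt3a;Tnfr2KO mice (edgeR adjusted p = 0.115). Leaving out Dnmt3a replicate 1 gave 0.46, -0.29 and -0.36 (edgeR adjusted p = 0.133, 0.401 and 0.248).

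Tet1, which is best known from embryonic stem cells, was highest on average in the MxCre mice. They gave 13.1, 15.4 and 20.4 scaled CPM, against 16.9, 13.6, 10.4 and 8.33 in Dnmt3a mice. The libraries labelled Dnmt3a;Tnfr1KO gave 8.55, 10.3 and 10.5, and Dnmt3a;Tnfr2KO mice gave 10.96, 12.4, 12.6 and 10.3. Every MxCre mouse thus lay above every mouse of both receptor groups, a separation that 13.3% of all genes showed for Dnmt3a;Tnfr1KO and 9.7% for Dnmt3a;Tnfr2KO. Against MxCre, the log2 differences were -0.74 ± 0.23 and -0.50 ± 0.21 (edgeR adjusted p = 0.168 and 0.290). Without MxCre replicate 3, the highest mouse, they were -0.55 and -0.30 (edgeR adjusted p = 0.736 and 0.814). In sums over all cells, fewer cells of a type and less RNA per cell cannot be told apart. The stem cell gate, where Tet1 is highest, held 11.7% ± 5.76 of MxCre cells (SD, n = 3) against 2.25% ± 1.48 in libraries labelled Dnmt3a;Tnfr1KO (n = 3) and 4.01% ± 1.34 in Dnmt3a;Tnfr2KO mice (n = 4), and the part of this share in the Tet1 difference was not tested.

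Tet3 lay at 28.4, 36.5 and 33.9 scaled CPM in MxCre mice and at 52.7, 36.7, 32.2 and 35.7 in Dnmt3a mice. In the libraries labelled Dnmt3a;Tnfr1KO it lay at 27.6, 27.4 and 31.9, all below every Dnmt3a mouse, as in 8.12% of all genes. Dnmt3a;Tnfr2KO mice gave 30.5, 31.8, 33.4 and 27.9, which overlapped the Dnmt3a mice. The log2 fold changes against Dnmt3a mice were -0.44 ± 0.15 (edgeR adjusted p = 0.151) and -0.35 ± 0.14 (edgeR adjusted p = 0.169). Without Dnmt3a replicate 1, the highest mouse, they were -0.27 and -0.18 (edgeR adjusted p = 0.277 and 0.397).

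To compare cells of like lineage, cells were gated on marker UMIs into 15 classes, of which 7 had enough mice in every group to compare groups. Maturation and cell cycle state within a gate were not held fixed. Gates were set by a score of marker genes, none of which is one of the 6 genes, and 44274 cells (66.2%) entered a gate, while 11725 (17.5%) lay near a threshold of the score. The 7 gates were stem cells (HSC), megakaryocyte, erythroid, basophil and mast, granulocyte progenitor, neutrophil and monocyte. Over 40 pairs of a gene and a gate, 1 was called higher in Dnmt3a than in MxCre mice, 3 were called lower in libraries labelled Dnmt3a;Tnfr1KO than in Dnmt3a mice, and 3 were called lower in Dnmt3a;Tnfr2KO than in Dnmt3a mice. Of all pairs of a gene and a gate, 2.11%, 1.25% and 1.34% were called in these comparisons, and 0.982%, 0.503% and 0.629% in the same direction as these calls. All 7 calls fell on Dnmt3a or Tet2, in the granulocyte progenitor or the monocyte gate, which were the gates with the most cells. In the other comparisons 0 of the 40 pairs were called by edgeR, against 0.112% of all pairs between both receptor groups, 0.104% for Dnmt3a;Tnfr1KO against MxCre and 0.384% for Dnmt3a;Tnfr2KO against MxCre. At an unadjusted p below 0.05, 0, 0 and 1 of the 40 pairs passed there, beside 3.22%, 3.86% and 6.31% of all pairs. In the 3 comparisons with the Dnmt3a mice, 11, 12 and 11 of the 40 passed at that level, beside 17.4%, 15.2% and 16.3% of all pairs.

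In the granulocyte progenitor gate, which held 312 to 2034 cells a mouse and is marked by Elane, Ms4a3 and Gfi1, the Dnmt3a transcript separated the groups. It stood at 20.6, 20.0 and 21.4 scaled CPM in MxCre mice and at 32.9, 25.4, 26.1 and 29.0 in Dnmt3a mice. Libraries labelled Dnmt3a;Tnfr1KO gave 20.3, 20.7 and 20.4, and Dnmt3a;Tnfr2KO mice gave 21.6, 22.4, 22.2 and 20.0. Each of the 4 Dnmt3a mice lay above all 10 other mice. Of all pairs of a gene and a gate, 8.98% were higher in Dnmt3a than in MxCre mice with no overlap. Against Dnmt3a mice, 6.96% were lower with no overlap in libraries labelled Dnmt3a;Tnfr1KO and 4.39% in Dnmt3a;Tnfr2KO mice. The share above all 3 groups at once was not counted. Dnmt3a rose by 0.45 ± 0.10 (log2, SE) in Dnmt3a against MxCre mice (edgeR adjusted p = 0.0205). It fell by 0.47 ± 0.10 on the log2 scale in libraries labelled Dnmt3a;Tnfr1KO against Dnmt3a mice (log2 -0.47, edgeR adjusted p = 0.0196) and by 0.39 ± 0.091 in Dnmt3a;Tnfr2KO mice (log2 -0.39, edgeR adjusted p = 0.0261). Without any 1 of the MxCre mice the first call was lost (edgeR adjusted p = 0.111, 0.0738 and 0.0616 without replicates 1, 2 and 3), and without any 1 of the libraries labelled Dnmt3a;Tnfr1KO the second was lost (0.0660, 0.0952 and 0.0581). The last was lost without Dnmt3a replicate 4 (0.0517) or Dnmt3a;Tnfr2KO replicate 1, 2 or 4 (0.0651, 0.0519 and 0.0597). Over all omissions the 3 log2 fold changes ranged from 0.38 to 0.50, from -0.51 to -0.40 and from -0.44 to -0.32, and on UMI totals they were 0.67, -0.71 and -0.62.

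Tet2 in the same gate was lower in both receptor groups than in Dnmt3a mice. MxCre mice gave 19.7, 24.1 and 21.0 scaled CPM, and Dnmt3a mice gave 39.6, 23.2, 28.6 and 27.7. Libraries labelled Dnmt3a;Tnfr1KO gave 20.9, 17.2 and 22.0, and Dnmt3a;Tnfr2KO mice gave 17.6, 21.7, 19.2 and 17.3. Both receptor groups lay below every Dnmt3a mouse, while the MxCre mice overlapped the Dnmt3a mice. Taken 1 receptor group at a time, 6.96% (Dnmt3a;Tnfr1KO) and 4.39% (Dnmt3a;Tnfr2KO) of all pairs of a gene and a gate lay below in this way. Tet2 fell by 0.57 ± 0.16 on the log2 scale in libraries labelled Dnmt3a;Tnfr1KO (log2 -0.57, edgeR adjusted p = 0.0488) and by 0.65 ± 0.14 in Dnmt3a;Tnfr2KO mice (log2 -0.65, edgeR adjusted p = 0.0220). The first call kept its side of 0.05 in 3 of 14 omissions of a mouse (Dnmt3a replicate 2 and Dnmt3a;Tnfr2KO replicates 3 and 4) and lost it in the others, with adjusted p-values from 0.0522 without Dnmt3a;Tnfr2KO replicate 2 to 0.221 without Dnmt3a;Tnfr1KO replicate 2. The second kept it in 13 of 14 and was lost without Dnmt3a;Tnfr2KO replicate 1 (edgeR adjusted p = 0.0636). For Dnmt3a against MxCre mice the Tet2 log2 fold change was 0.46 (edgeR adjusted p = 0.0848).

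In the monocyte gate, marked by F13a1, Irf8 and Csf1r, Dnmt3a stood at 16.6, 16.7 and 19.4 scaled CPM in MxCre mice and at 26.5, 23.5, 23.6 and 22.1 in Dnmt3a mice. Libraries labelled Dnmt3a;Tnfr1KO gave 16.5, 17.5 and 18.0, and Dnmt3a;Tnfr2KO mice gave 20.0, 20.1, 21.2 and 16.8. The Dnmt3a mice again lay above all 10 others. Taken 1 group at a time, 8.98% (MxCre), 6.96% (Dnmt3a;Tnfr1KO) and 4.39% (Dnmt3a;Tnfr2KO) of all pairs of a gene and a gate lay below the Dnmt3a mice in this way. The fall in libraries labelled Dnmt3a;Tnfr1KO was called (log2 -0.46 ± 0.11, edgeR adjusted p = 0.0494), but it kept that side of 0.05 in 1 of 14 omissions of a mouse (Dnmt3a;Tnfr2KO replicate 4). In the other 13 the adjusted p-values ran from 0.0507 without Dnmt3a replicate 2 to 0.190 without Dnmt3a;Tnfr1KO replicate 2, and a stricter gate gave 0.108. For Dnmt3a against MxCre mice the log2 fold change was 0.45 (edgeR adjusted p = 0.0690), and for Dnmt3a;Tnfr2KO against Dnmt3a mice it was -0.29 (edgeR adjusted p = 0.123).

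Tet2 in monocyte-gated cells stood at 25.7, 31.1 and 26.2 scaled CPM in MxCre mice and at 49.2, 30.1, 34.9 and 41.1 in Dnmt3a mice. The libraries labelled Dnmt3a;Tnfr1KO gave 28.0, 24.4 and 26.9, and Dnmt3a;Tnfr2KO mice gave 23.6, 26.3, 27.5 and 23.7. All mice of both receptor groups lay below all Dnmt3a mice, beside 6.96% (Dnmt3a;Tnfr1KO) and 4.39% (Dnmt3a;Tnfr2KO) of all pairs of a gene and a gate, each group taken alone. Tet2 fell in Dnmt3a;Tnfr2KO against Dnmt3a mice (log2 -0.62 ± 0.13, edgeR adjusted p = 0.0305), a call kept in 8 of 14 omissions. It was lost without Dnmt3a replicate 1 or 4 (edgeR adjusted p = 0.0589 and 0.0586) and without any 1 of the Dnmt3a;Tnfr2KO mice (0.105, 0.0707, 0.0542 and 0.0510 without replicates 1 to 4). In libraries labelled Dnmt3a;Tnfr1KO the log2 fold change was -0.56 (edgeR adjusted p = 0.0634).

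**Figure D2:**
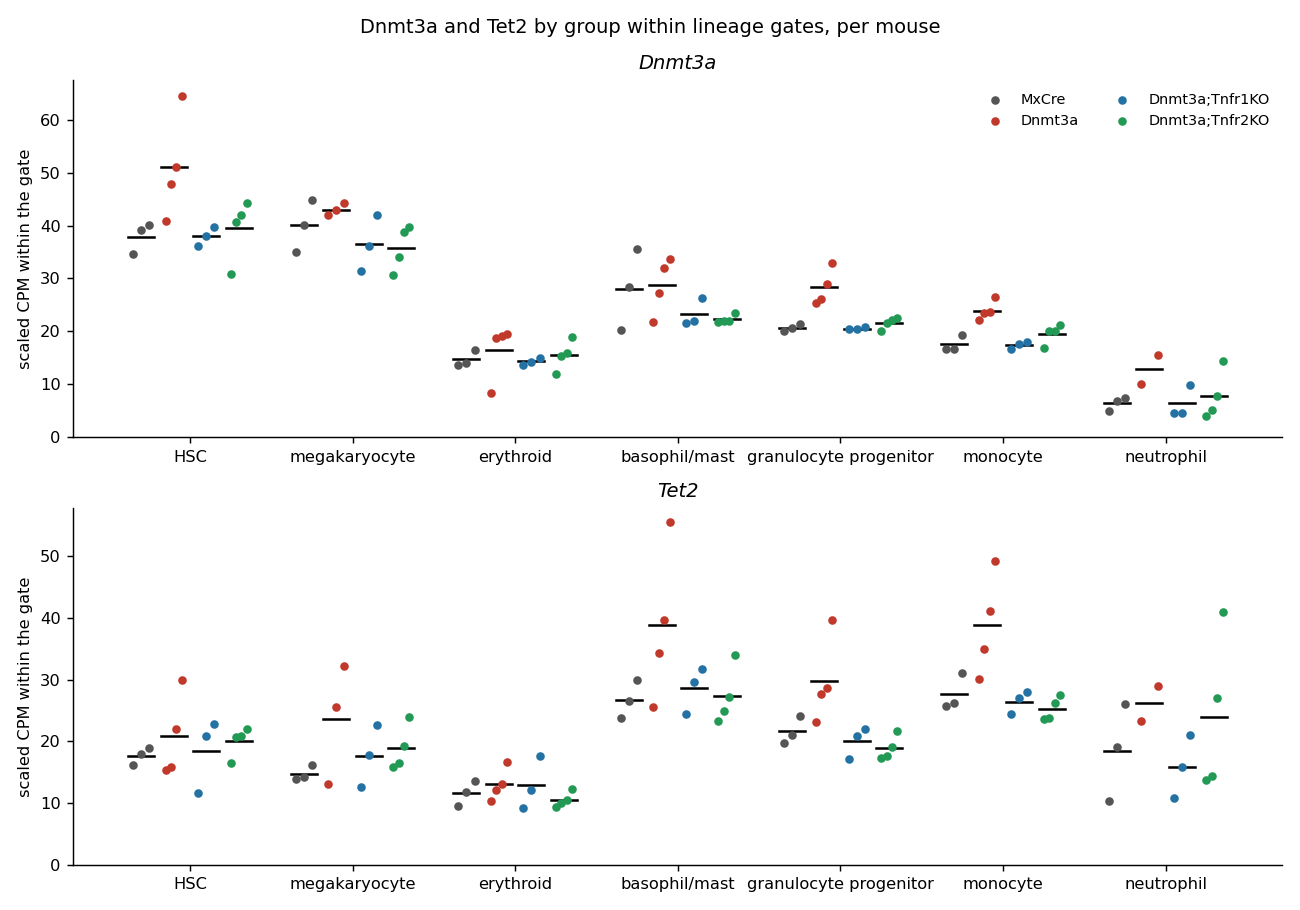
Scaled CPM of Dnmt3a (top) and Tet2 (bottom) within each of 7 lineage gates (horizontal axis) by group (colours). Points are mice and bars are group means, and both vertical axes start at 0. In granulocyte progenitor cells the Dnmt3a mice (25.4 to 32.9 for Dnmt3a) lie above all other mice (20.0 to 22.4).

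The direction of the Dnmt3a difference was the same in all 7 gates: higher in Dnmt3a than in MxCre mice, with log2 fold changes from 0.09 to 0.84, and lower in both receptor groups than in Dnmt3a mice. The neutrophil gate holds only 2 Dnmt3a mice, with 31 and 814 cells. The fitted direction stayed the same in 7 of 7 gates without Dnmt3a replicate 1, with medians of 0.38, -0.37 and -0.29. In basophil and mast cells the log2 fold change against MxCre was then 0.04, and the mean scaled CPM of the Dnmt3a mice left (27.04) lay below that of MxCre mice (28.07). The gates are cells of the same libraries and do not count as replicates of each other. The share of all genes with the same direction in all 7 gates was not counted. Groups did not overlap in 4 of 7 gates for Dnmt3a against MxCre, in 5 of 7 for libraries labelled Dnmt3a;Tnfr1KO against Dnmt3a, and in 3 of 7 for Dnmt3a;Tnfr2KO against Dnmt3a mice. In the same directions, 8.98%, 6.96% and 4.39% of all pairs of a gene and a gate had groups that did not overlap. In the HSC gate, with 55 to 810 cells a mouse, the Dnmt3a transcript stood at 34.6, 39.1 and 40.0 scaled CPM in MxCre mice and at 51.1, 47.9, 40.9 and 64.5 in Dnmt3a mice. There the log2 fold change was 0.41 ± 0.15 (edgeR adjusted p = 0.118).

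Tet2 also had 1 sign in all 7 gates in each of these 3 comparisons, with median log2 fold changes of 0.49, -0.41 and -0.46. Without Dnmt3a replicate 1 the medians were 0.30, -0.24 and -0.30, and the sign held in 6, 6 and 5 of the 7 gates. Tet3 was higher in Dnmt3a than in MxCre mice in 6 of 7 gates (median log2 fold change 0.38) and lower in both receptor groups than in Dnmt3a mice in 7 of 7 (medians -0.47 and -0.37). These medians were 0.23, -0.30 and -0.24 without Dnmt3a replicate 1, with 6, 7 and 6 of the 7 gates in that direction. No Tet3 pair was called, and the lowest edgeR adjusted p was 0.0593, for Dnmt3a against MxCre mice in the HSC gate. Dnmt3b was higher in Dnmt3a than in MxCre mice in 6 of 6 gates in which it could be tested, with log2 fold changes from 0.06 to 0.55 and a lowest edgeR adjusted p of 0.0873. It was higher in 5 of 6 without Dnmt3a replicate 1. Dnmt1 had both signs, with medians of 0.07, -0.05 and -0.06, or -0.03, 0.05 and -0.01 without that mouse. For these counts of signs, too, no share over all genes was counted. In the same 3 comparisons, groups did not overlap in 0, 3 and 2 of 7 gates for Tet2. The counts were 3, 2 and 1 for Tet3 and 1, 1 and 0 for Dnmt3b. Of all pairs of a gene and a gate, 8.98%, 6.96% and 4.39% did not overlap in the same directions.

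Within the 6 gates where it could be tested, Tet1 showed smaller differences from MxCre than in the sums over all cells. In libraries labelled Dnmt3a;Tnfr1KO its log2 fold change was below 0 in 6 of 6 gates with a median of -0.39, against -0.74 over all cells. In Dnmt3a;Tnfr2KO mice it was below 0 in 5 of 6 gates, with a median of -0.32 against -0.50 over all cells. Without MxCre replicate 3 these medians were -0.23 and -0.18. None of these pairs was called, and the lowest edgeR adjusted p-values were 0.967 and 0.728. The neutrophil gate, where Tet1 was not tested, is not among the 6. There Tet1 stood at 6.34 ± 2.69 scaled CPM in MxCre mice (SD, n = 3). It stood at 2.46 ± 2.63 in libraries labelled Dnmt3a;Tnfr1KO (n = 3) and at 1.71 ± 1.19 in Dnmt3a;Tnfr2KO mice (n = 4), so the smaller differences are not shown for that gate.

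A level that gives each lineage the same weight in every mouse was formed as the mean log2 scaled CPM over the 5 gates present in all 14 mice (HSC, basophil and mast, erythroid, granulocyte progenitor and monocyte). Dnmt3a was the only gene of the 6 whose group difference passed 0.05 in exact permutation tests over mice, 3 of 36 tests in all. Over the 9353 genes tested in all 5 gates, 4.54% of such tests passed, and 6.93%, 5.16% and 8.99% in the 3 comparisons with the Dnmt3a mice that follow. The 36 tests and the 4.54% include Dnmt3a;Tnfr1KO against MxCre, 3 mice against 3, where p cannot go below 0.1 and no gene could pass. The Dnmt3a level was 4.51 ± 0.127 in MxCre mice (SD, n = 3) and 4.79 ± 0.120 in Dnmt3a mice (n = 4), a difference of 0.28 (exact two-sided permutation p = 0.0286). It was 4.45 ± 0.0108 in libraries labelled Dnmt3a;Tnfr1KO (n = 3), 0.34 below Dnmt3a mice (difference -0.34, exact permutation p = 0.0286). In Dnmt3a;Tnfr2KO mice it was 4.52 ± 0.142 (n = 4), a difference of -0.28 from Dnmt3a mice (exact permutation p = 0.0286). That p is the smallest these group sizes allow, and the 3 tests share the Dnmt3a mice. With a stricter gate the differences were 0.27, -0.31 and -0.24, each with an exact permutation p of 0.0571. Without Dnmt3a replicate 1 they were 0.22, -0.28 and -0.22 (exact permutation p = 0.1, 0.1 and 0.0571; 3 mice against 3 cannot go below 0.1).

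For Tet2 the largest difference in this level was -0.39, for Dnmt3a;Tnfr2KO against Dnmt3a mice (exact permutation p = 0.0571). Whether the group difference itself varied with lineage was tested for Dnmt3a and Tet2, granulocyte progenitor against each of 4 other gates, in 24 exact permutation tests. No test passed 0.05 for Dnmt3a, and 1 did for Tet2, which is given among the results for a closer look. The libraries labelled Dnmt3a;Tnfr1KO and the Dnmt3a;Tnfr2KO mice differed by 0.06 in the Dnmt3a level (exact permutation p = 0.457).

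The next comparison was between lineages, each against the HSC gate with the mouse as a block, over 12973 genes in 10 further gates. Of 60 pairs of a gene and a gate, 40 were called. The share of all genes called ranged widely by gate: 41.4% of all genes were called in the lymphoid-primed, 54.6% in the B progenitor, 44.3% in the mature B, 28.1% in the T and NK, 49.4% in the megakaryocyte, 75.5% in the erythroid, 51.4% in the basophil and mast, 77.6% in the granulocyte progenitor, 76.3% in the monocyte and 78.4% in the neutrophil gate. Over the 10 gates together, 31.2% of all pairs were called lower and 26.5% higher than in HSC. With backgrounds this high nothing is read from the number of calls, and the direction and size of the differences are described. Fold changes below come from TMM-scaled fits. Scaling to UMI totals lowers the median of all genes by 0.95 in the neutrophil gate (a shift of -0.95), by 0.34 in the granulocyte progenitor gate (-0.34) and by at most 0.26 elsewhere (-0.26 in the erythroid gate), and the calls named hold under both scalings unless stated. Levels are CPM of the gate's UMI total, as mean ± SD over mice. The lineage-negative sort is meant to remove mature cells, and the mature B, T and NK and neutrophil gates hold cells that passed it.

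Among the 11 gates, both de novo enzymes had their highest mean over mice in the stem cell gate. The lymphoid-primed, B progenitor, and T and NK gates hold no MxCre mouse, so their means cover other groups than the HSC mean. The macrophage gate, set aside because immunoglobulin genes were among its leading genes, had a higher Dnmt3a mean (49.9 ± 21.4 CPM, n = 7) than any of the 11. Dnmt3b stood at 41.9 ± 3.82 CPM in HSC-gated cells (n = 14) and 40.0 ± 12.4 in lymphoid-primed cells (n = 11), then 29.6 ± 6.40 in megakaryocyte-gated (n = 13) and 19.5 ± 4.09 in basophil and mast cells (n = 14). The granulocyte progenitor (14.4 ± 3.73), erythroid (14.1 ± 4.89), B progenitor (14.1 ± 3.31), monocyte (13.7 ± 3.16), T and NK (12.6 ± 5.02) and mature B gates (11.7 ± 5.40) lay within their spread of each other. The neutrophil gate was far below, at 0.584 ± 0.880 CPM (n = 12). Dnmt3b was lower than in HSC in 9 of 10 gates, with log2 fold changes from -0.45 ± 0.090 in the megakaryocyte gate (edgeR adjusted p = 8.72e-06) to -4.46 ± 0.23 in the neutrophil gate (edgeR adjusted p = 1.05e-35). The exception was the lymphoid-primed gate, at 0.00 ± 0.11. There the order varied by group: Dnmt3b stood at 49.1 ± 14.5 CPM in lymphoid-primed and 45.3 ± 2.26 in HSC-gated cells of Dnmt3a mice (n = 4), but at 29.9 ± 6.67 and 40.6 ± 3.88 in Dnmt3a;Tnfr2KO mice (n = 4).

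Counted per cell, and with each cell thinned to 5000 UMIs, 17.7% of HSC-gated and 0.436% of neutrophil-gated cells had a Dnmt3b UMI. Unthinned, the shares were 40.9% at a median of 13060 UMIs a cell and 0.796% at a median of 7023. Thinning left out 61 of 3323 HSC-gated and 760 of 2136 neutrophil-gated cells. Dnmt3a by the same count fell from 17.2% of HSC-gated to 3.27% of neutrophil-gated cells.

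Dnmt3a had a shallower slope over the lineages. It stood at 42.3 ± 10.6 CPM in HSC, 38.6 ± 6.08 in megakaryocyte and 35.1 ± 6.78 in lymphoid-primed cells, then 31.4 ± 21.2 in B progenitors (n = 5) and 29.2 ± 11.7 in T and NK cells (n = 3). It stood at 25.7 ± 6.55 in basophil and mast, 23.8 ± 9.10 in mature B, 23.4 ± 6.40 in granulocyte progenitor, 20.1 ± 4.49 in monocyte and 15.9 ± 4.82 in erythroid cells, and was lowest in neutrophils at 7.96 ± 4.29. No 2 neighbours in this order lay apart by more than the sum of their SDs. Dnmt3a was lower than in HSC in 6 of 10 gates, with log2 fold changes from -0.50 ± 0.071 in granulocyte progenitor to -1.11 ± 0.078 in erythroid and -1.50 ± 0.13 in neutrophil-gated cells (edgeR adjusted p = 4.41e-10, 6.40e-26 and 9.27e-20). The megakaryocyte gate did not differ beyond its error (-0.02 ± 0.078), and in MxCre mice its level (39.8 ± 5.73 CPM, n = 3) was above the HSC level (37.3 ± 3.47, n = 3) by less than the SDs.

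Dnmt1 stood at 242 ± 29.2 CPM in megakaryocyte, 224 ± 25.8 in HSC and 211 ± 31.2 in lymphoid-primed cells, and at 157 to 186 CPM in the basophil and mast, monocyte, B progenitor, erythroid and granulocyte progenitor gates. T and NK (85.2 ± 28.1), mature B (79.5 ± 36.1) and neutrophil-gated cells (77.3 ± 11.4) were the low group. The largest log2 fold changes against HSC were -1.42 ± 0.14 in mature B and -1.36 ± 0.18 in T and NK cells (edgeR adjusted p = 3.29e-15 and 6.02e-10). Its higher level in the megakaryocyte gate (0.16 ± 0.067, edgeR adjusted p = 0.0446) was not called on UMI totals.

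The share of all genes called lower than in HSC in all 10 gates was not counted, so nothing is read from such a number. Of the 6 genes, Tet1 was the one called lower in all 10 gates under both scalings. It stood at 37.1 ± 9.06 CPM in HSC, at 24.2 ± 4.60 in basophil and mast, 23.6 ± 7.48 in lymphoid-primed and 23.1 ± 7.22 in megakaryocyte cells, and at 8.33 ± 3.94 in B progenitors, 8.17 ± 2.38 in erythroid and 8.15 ± 2.49 in granulocyte progenitor cells. T and NK (4.99 ± 1.31), monocyte (4.85 ± 1.28), mature B (4.70 ± 4.36) and neutrophil-gated cells (3.12 ± 2.80) were lowest. The log2 fold changes ran from -0.47 ± 0.097 in basophil and mast cells to -2.68 ± 0.095 in monocytes (edgeR adjusted p = 1.62e-05 and 1.34e-50) and -2.74 ± 0.49 in T and NK cells. After thinning, 17.2% of HSC-gated and 2.02% of monocyte-gated cells had a Tet1 UMI.

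Of the 11 gates, Tet2 had its highest means in the basophil and mast and the monocyte gates, and the macrophage gate that was set aside stood at 32.6 ± 14.2 CPM (n = 7). It stood at 31.1 ± 11.4 CPM in basophil and mast and 30.4 ± 9.97 in monocyte cells, at 28.3 ± 15.8 in mature B cells (n = 5), 23.4 ± 8.81 in granulocyte progenitor, 22.4 ± 15.5 in T and NK (n = 3), 21.1 ± 9.98 in neutrophil-gated and 19.4 ± 5.23 in HSC-gated cells, and was lowest in erythroid cells at 12.2 ± 3.66. Tet2 was higher than in HSC in basophil and mast (0.81 ± 0.095), granulocyte progenitor (0.60 ± 0.084) and monocyte cells (0.90 ± 0.085), with edgeR adjusted p-values of 1.59e-12, 3.48e-10 and 7.02e-18. On UMI totals these were 0.67, 0.25 and 0.65. Its rise in the neutrophil gate (1.04 ± 0.12, edgeR adjusted p = 2.92e-13) was lost on UMI totals. Erythroid cells were lower (-0.38 ± 0.093, edgeR adjusted p = 0.000151), and B progenitors had a log2 fold change of -0.48 with an edgeR adjusted p of 0.0114.

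Tet3 was called in 3 of 10 gates in the TMM-scaled fits. It ranged from 51.0 ± 14.8 CPM in megakaryocyte and 45.0 ± 11.4 in HSC to 24.7 ± 8.63 in granulocyte progenitor and 22.4 ± 6.78 in neutrophil-gated cells. It was lower than in HSC in granulocyte progenitor (-0.55 ± 0.065) and monocyte cells (-0.18 ± 0.066) and higher in megakaryocyte cells (0.23 ± 0.071), with edgeR adjusted p-values of 3.18e-13, 0.0127 and 0.00353. On UMI totals it was also called lower in neutrophil-gated (-0.93, edgeR adjusted p = 1.67e-14) and erythroid cells (-0.20, edgeR adjusted p = 0.0138). In monocytes Tet2 was thus above and Tet3 and Tet1 below their stem cell levels.

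**Figure D3:**
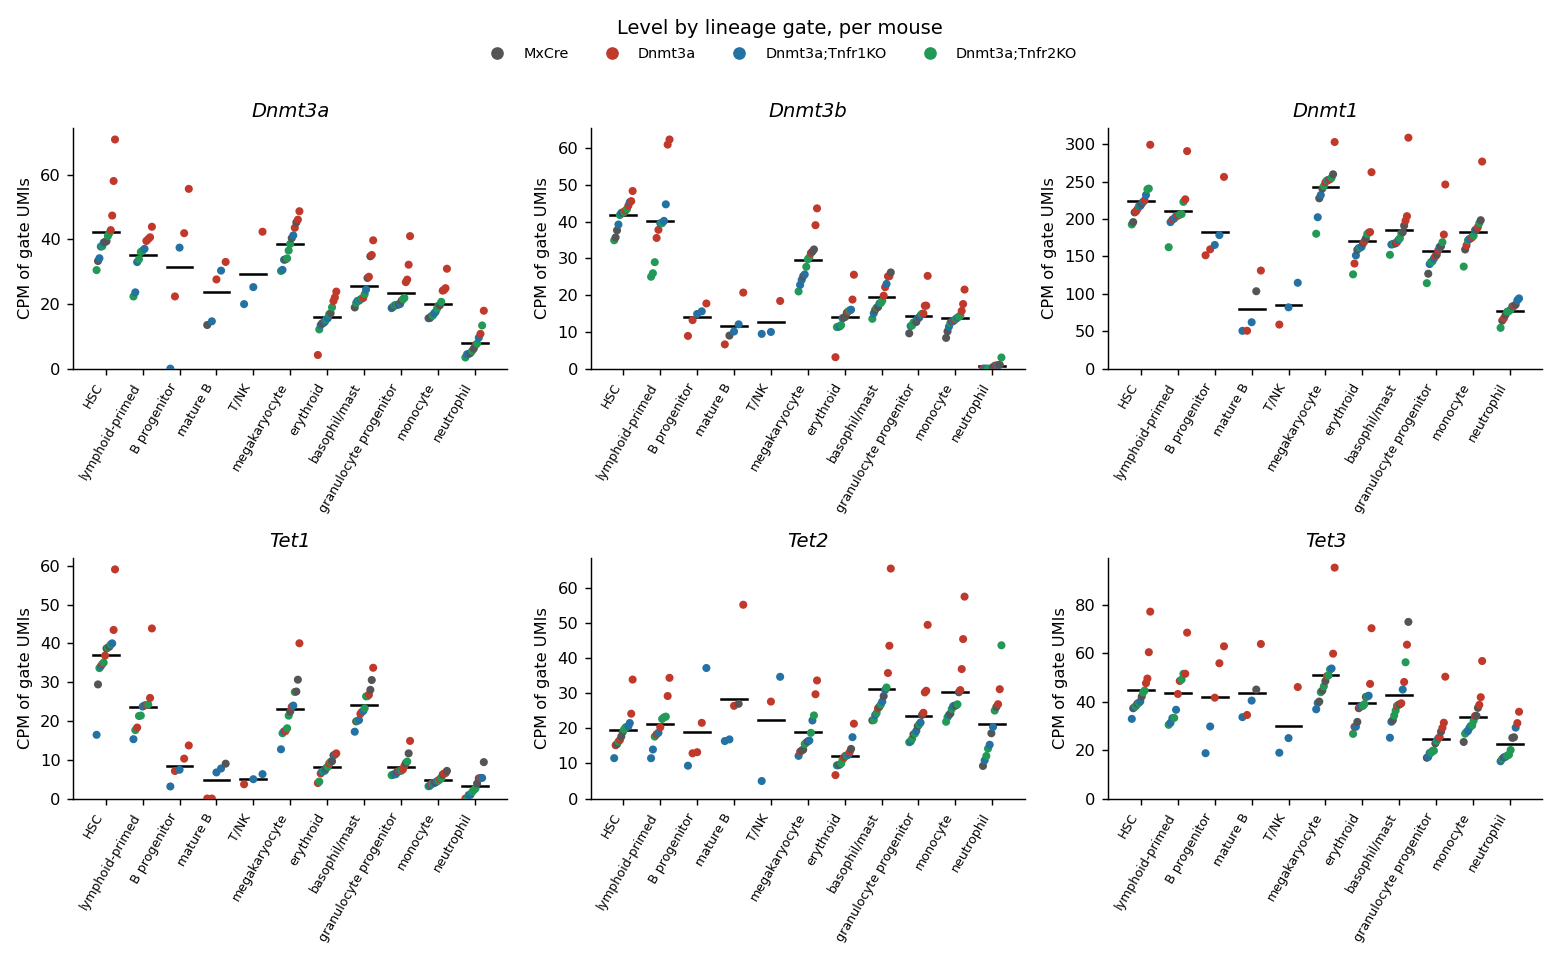
CPM of the gate's UMIs (vertical axes, from 0) for each gene in 11 lineage gates (horizontal axes). Points are mice coloured by group and bars are means over mice. Dnmt3b and Tet1 peak in HSC-gated cells (41.9 and 37.1), whereas Tet2 peaks in basophil and mast (31.1) and monocyte cells (30.4).

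The patterns over the 11 gates were also compared, as a description with no test. This used gate means of log2 TMM-scaled CPM, not the CPM levels printed above. On the log2 scale Tet2 was highest in the neutrophil gate (4.97), where Dnmt3b was lowest (0.08). The next lowest Dnmt3b value was 3.47, in the mature B gate. Dnmt3a and Dnmt3b had a Pearson r of 0.80, Tet1 and Dnmt1 of 0.74, and Tet1 and Dnmt3b of 0.70, while Tet2 had negative values with Dnmt3b (-0.45) and Tet1 (-0.30). These values include the outlying neutrophil gate, where the rise of Tet2 over HSC was lost on UMI totals. Values of r without that gate were not computed. Points share libraries and differ in depth. Among 7881 genes with enough counts, the patterns most like Dnmt3a over the gates were those of P2ry14 (r = 0.93), Laptm4a (0.92) and Klk8 (0.92). Agk, 1500011B03Rik and Trim44 were most like Dnmt3b (0.99, 0.98 and 0.97). Atad5, Dtl and Chaf1a, the last 2 of which are in the S-phase list used below, were most like Dnmt1 (0.99, 0.98 and 0.98). For Tet1 they were Mecom (0.91), which is a marker of the HSC gate, Nedd4 (0.91) and Osbpl1a (0.90). Rin3, Fcgr2b and Yipf1 were most like Tet2 (0.92, 0.91 and 0.91), and Zc3h4, Casc3 and Nfya most like Tet3 (0.92, 0.89 and 0.85).

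Maintenance methylation follows replication, so the genes were also compared between cells rich and poor in S-phase transcripts. Within each mouse and gate, cells were ranked by the share of UMIs in 44 S-phase genes, none of them among the 6 or among the 50 partner genes described last, and the highest and lowest of 3 equal parts were summed (the upper and lower part). Cells that entered no gate, 33.8% of those kept, were ranked together within each mouse. Lineage was thus not held fixed for them, and its part in the differences was not tested. Dnmt1 stood at 242 ± 41.8 CPM in the upper and 115 ± 24.4 in the lower part (SD, n = 14), higher in 14 of 14 mice (log2 1.10 ± 0.033, edgeR adjusted p = 7.94e-16). Dnmt3a was higher by 0.24 ± 0.022 (28.8 ± 6.59 against 24.8 ± 5.84 CPM, 14 of 14 mice, edgeR adjusted p = 9.79e-09). Dnmt3b was higher by 0.15 ± 0.024 (21.5 ± 4.23 against 19.6 ± 4.31 CPM, 12 of 14 mice, edgeR adjusted p = 1.36e-05). All 3 methyltransferases rose with the S-phase share, Dnmt1 by far the most. Over the gates, Dtl and Chaf1a, which are in the ranking list, were among the genes most like Dnmt1. A ranking by S-phase transcripts thus made a rise of Dnmt1 likely beforehand, and the rise does not show a link to maintenance methylation.

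None of the TET genes was called higher. Tet2 was lower in the upper part in all 14 mice (21.3 ± 7.25 against 24.9 ± 8.23 CPM, log2 -0.20 ± 0.033, edgeR adjusted p = 1.79e-05). For Tet1 the log2 fold change was -0.04 ± 0.034 and for Tet3 -0.03 ± 0.021 (edgeR adjusted p = 0.256 and 0.159). The background is high: 74.8% of 13085 genes were called between the parts, 36% higher and 38.8% lower in the upper part. Upper-part cells had the higher median UMI count in 14 of 14 mice (16375 to 40178 against 5587 to 35454 over the mice), and the part of depth in these differences was not tested. In the upper part, the S-phase genes stood at 5468 to 6555 CPM in Dnmt3a mice and at 4804 to 5327 in all other mice. In the lower part the ranges overlapped (1690 to 2634 against 1524 to 2005). The part of S-phase share in the group differences within gates was not tested.

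**Figure D4:**
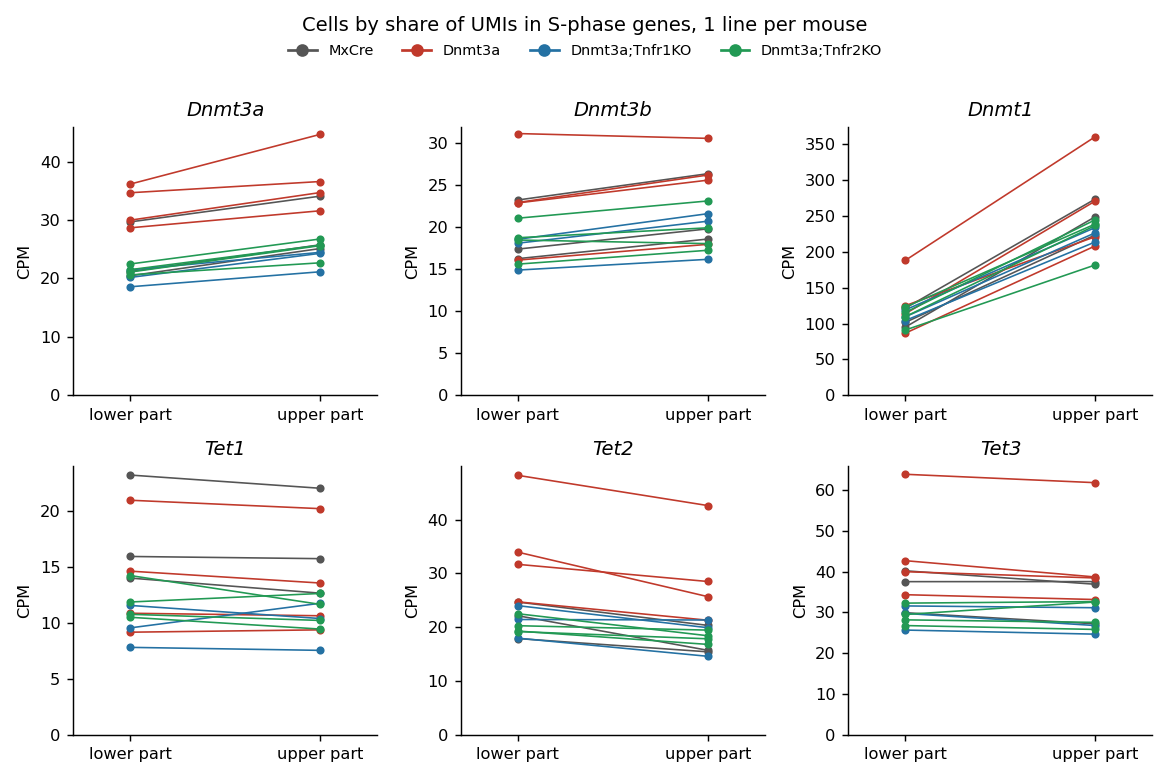
CPM (vertical axes, from 0) of each gene in the lower and upper part of cells by S-phase share, 1 line per mouse, coloured by group. Dnmt1 rises in all 14 mice (means 115 and 242), whereas Tet2 falls in all 14 (24.9 and 21.3).

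Genes tied to the work of the 6 were read from 6 lists of 50 genes, 48 of them tested, which were drawn up with earlier results of these data known. In sums over all cells, 1 of the 48 was called for Dnmt3a against MxCre mice and 0 in each of the other 5 comparisons by edgeR. With 2.41% of all genes called in the first, 1 of 48 is near the background, and Nsd2 is described as a single gene only. At an unadjusted edgeR p below 0.05, 12 of the 48 passed for Dnmt3a against MxCre and 15, 13, 0, 4 and 3 in the others, beside 23.6%, 19.7%, 22.9%, 3.99%, 12% and 15.4% of all genes in the same order. Nsd2 is a histone methyltransferase whose mark helps to place de novo methylation. Nsd2 stood at 55.4, 61.2 and 65.2 scaled CPM in MxCre mice and at 148, 78.4, 86.3 and 101 in Dnmt3a mice, with no overlap, as in 9.91% of all genes (log2 0.77 ± 0.18, edgeR adjusted p = 0.0442). It stood at 58.7 to 70.9 in libraries labelled Dnmt3a;Tnfr1KO and at 61.0 to 74.4 in Dnmt3a;Tnfr2KO mice, below every Dnmt3a mouse, with edgeR adjusted p-values of 0.0977 and 0.0726. Of all genes, 8.12% and 5.33% were lower there with no overlap. The call against MxCre was kept without Dnmt3a replicate 2 or 4 (edgeR adjusted p = 0.0171 and 0.0480) and lost in the other 12 omissions of a mouse, with adjusted p-values from 0.0539 without Dnmt3a;Tnfr2KO replicate 3 to 0.154 without MxCre replicate 3. Without Dnmt3a replicate 1, the highest mouse, the log2 fold change was 0.55 (edgeR adjusted p = 0.0594).

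The 8 genes listed as partners of de novo methylation (Dnmt3l, Nsd1, Nsd2, Setd2, Ezh2, Kmt2a, Setdb1 and Trim28) may favour or oppose it. Their median log2 fold change was 0.41 for Dnmt3a against MxCre mice, beside 0.03 over all genes tested. Against Dnmt3a mice their median was -0.44 in both receptor groups, beside -0.05 and -0.03 over all genes. Trim28, a corepressor, had the opposite sign in all 3 comparisons (-0.14, 0.20 and 0.21, edgeR adjusted p = 0.342, 0.220 and 0.150). Dnmt3l had it for Dnmt3a;Tnfr1KO against Dnmt3a (0.12, edgeR adjusted p = 0.834). Without Dnmt3a replicate 1 the 3 medians of the list were 0.22, -0.22 and -0.21. The 8 partners of maintenance methylation had medians of 0.08, -0.02 and -0.0019 in the same comparisons. The medians of methyl-CpG readers were 0.07, -0.19 and -0.14, those of demethylation repair -0.03, 0.02 and 0.07, those of TET partners and oxoglutarate metabolism 0.19, -0.02 and 0.06, and those of the S-adenosylmethionine cycle 0.11, -0.19 and -0.09. With Dnmt3a replicate 1 left out, the medians were -0.0054, 0.04 and 0.06 for maintenance partners, 0.03, -0.14 and -0.15 for readers and 0.05, -0.08 and 0.11 for demethylation repair. They were then 0.13, 0.0068 and 0.09 for TET partners and -0.01, -0.06 and 0.02 for the S-adenosylmethionine cycle, so several of these small medians turned sign. These lists were not tested against other genes.

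**Figure D5:**
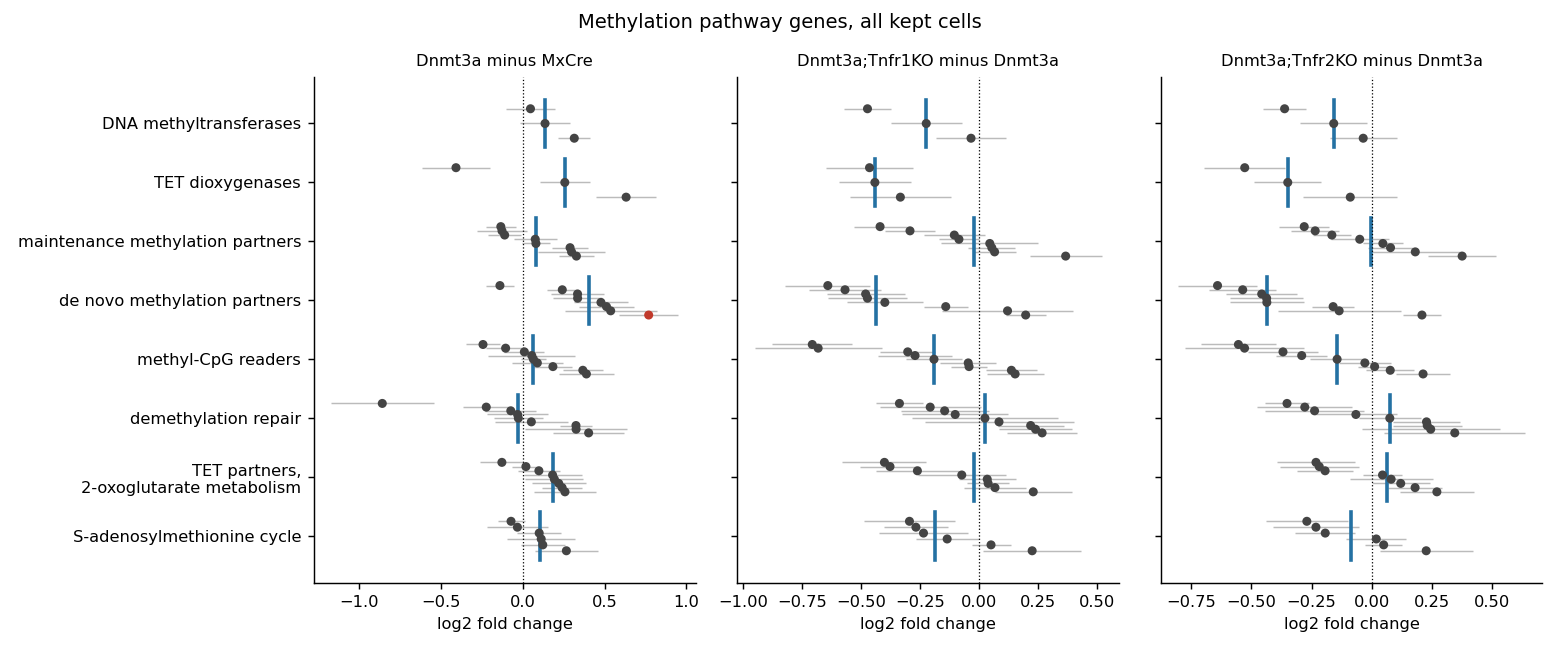
Log2 fold changes (horizontal axes) of the 6 genes and their partner genes by list (vertical axis) in 3 comparisons over all kept cells. Points are genes, grey lines are SE, blue bars are list medians and the red point is the 1 gene called (Nsd2). The de novo partners have medians of 0.41, -0.44 and -0.44.

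With the S-phase share, 8 of 8 maintenance partners were higher in the upper part, as was Dnmt1. The median log2 fold change of these partners was 1.28 beside -0.01 over all genes, of which 36% were called higher. Several of the partners, such as Pcna and Lig1, are themselves genes of DNA replication. They did not rank the cells, but a ranking by S-phase transcripts made their rise close to certain. The rise therefore does not show a link to maintenance methylation. Uhrf1, which brings Dnmt1 to hemimethylated sites and was named after its values were seen, stood at 134 ± 19.4 CPM in the upper and 22.7 ± 3.25 in the lower part (log2 2.56 ± 0.039, edgeR adjusted p = 7.19e-20). Lig1, Pcna and Hells, also named after their values were seen, rose by 2.15, 1.83 and 1.65. Of the de novo partners, 7 of 8 were higher and 1 lower (median 0.27), and of the 9 methyl-CpG readers 1 was higher and 7 were lower (median -0.21), where 38.8% of all genes were called lower.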

How the data were processed

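The 14 deposited 10x 3′ matrices hold UMI counts per gene and barcode, made by the authors with Cell Ranger 6.0.0 after bcl2fastq 2.20.0.422, with builds mm10 and GRCm38, per the submitters' processing notes. Cells needed at least 1000 UMIs, 500 genes and under 10% mitochondrial UMIs, and predicted doublets were removed at 0.8% per 1000 cells (30 neighbours, 2000 variable genes, 30 principal components). This left 66895 of 86693 barcodes.

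Gates used 15 sets with 134 markers. A set's score was the mean z-score of its markers' log counts per 10000 UMIs, and a cell entered its highest set if the score reached 0.5 with a margin of 0.25 and at least 3 markers detected. This rule was set after seeing marker levels. The dendritic and macrophage gates were set aside because immunoglobulin genes led them. Gates with under 20 cells in a mouse gave no value for that mouse.

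Counts were summed per mouse, or per mouse and gate, and tested with edgeR 4.0.16 (quasi-likelihood, TMM, R 4.3.3) over all genes with Benjamini-Hochberg adjustment and a threshold of 0.05. Group fits used all 4 groups, and fits across gates and S-phase parts kept the mouse as a block. DESeq2 1.42.0 was an alternative. Lineage-balanced levels are means of log2 (scaled CPM + 0.5), tested by exact permutation over all splits of the mice in Python 3.11.15 with numpy 2.4.6. Fits were tested on simulated data.

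The genes and lists were chosen with earlier results of these data known. Beside the 6, partner genes were named if called in all cells (at most 5 a comparison, by size of change), and 3 genes per member by likeness of pattern among genes of at least 10 CPM. Scaling to UMI totals for lineages, S-phase parts and lineage-balanced levels, the tests of differences between gates, and medians of lists and over gates without each mouse, were added after seeing the data. Other alternatives were a stricter gate (margin 0.5), doublets kept, no filter on low counts, only the groups compared, a replicate block and leaving out each mouse.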

Additional observations from a re-analysis of the deposited data

Results flagged for a closer look

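A sample far from the others of its group was looked for in 84 groups of 4 or more mice, and 8 were found. Chance alone finds about 1 in 20 groups. Values are scaled CPM of 1 mouse beside the range of the other mice of its group.

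Over all cells, Tet2 stood at 21.8 in Dnmt3a;Tnfr2KO replicate 3, against 19.7 to 20.0. In the HSC gate, Dnmt3b stood at 39.1 in Dnmt3a replicate 1, below the other Dnmt3a mice at 43.5 to 44.0. In basophil and mast cells, Dnmt3a stood at 23.5 in Dnmt3a;Tnfr2KO replicate 2 against 21.8 to 22.0, and Tet3 at 58.5 in replicate 3 of that group against 36.8 to 39.6. Tet3 was also high in granulocyte progenitor cells of that replicate, at 24.7 against 20.1 to 20.7.

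In granulocyte progenitor cells, Dnmt3b stood at 15.3 in Dnmt3a;Tnfr2KO replicate 2 against 12.8 to 13.1. In neutrophil-gated cells, Dnmt3b stood at 3.43 in Dnmt3a;Tnfr2KO replicate 3, with 0 in the other mice of the group. In erythroid cells, Dnmt3a stood at 8.28 in Dnmt3a replicate 4 against 18.7 to 19.4. The TMM factor of that library in this gate was 0.511, which raised the value: before this scaling it was 4.23 CPM, against 20.9 to 23.8 in the other Dnmt3a mice.

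The Tet2 difference between Dnmt3a;Tnfr2KO and Dnmt3a mice was larger in granulocyte progenitor than in HSC-gated cells by -0.605 on the log2 scale (exact two-sided permutation p = 0.0286, 1 of 24 tests made after seeing the data).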

How the results depend on the processing

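The number of genes called over all cells depended on the tool. In the order Dnmt3a against MxCre, Dnmt3a;Tnfr1KO and Dnmt3a;Tnfr2KO against Dnmt3a, the 2 receptor groups, and Dnmt3a;Tnfr1KO and Dnmt3a;Tnfr2KO against MxCre, edgeR called 377, 82, 128, 29, 51 and 69 genes and DESeq2 called 1506, 894, 1054, 105, 497 and 424. On UMI totals the first 3 were 592, 572 and 1552. With only the groups compared in the fit they were 8 (Dnmt3a against MxCre), 17 (Dnmt3a;Tnfr2KO against Dnmt3a), 108 and 193 (the receptor groups against MxCre). Leaving out 1 mouse gave 1 to 1275, 8 to 319, 31 to 797, 18 to 75, 5 to 220 and 24 to 157. For Dnmt3a against MxCre the count was 1 without Dnmt3a replicate 1 or MxCre replicate 2 and 1275 without Dnmt3a replicate 2. The causes were not tested.

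Of the 6 genes, DESeq2 called 2, 1 and 2 in the first 3 comparisons and 1 (Tet1) for Dnmt3a;Tnfr1KO against MxCre, and UMI totals called 1 for Dnmt3a;Tnfr1KO and 2 for Dnmt3a;Tnfr2KO against Dnmt3a, beside 3.66% and 9.93% of all genes. Without 1 mouse, 0 to 2, 0 to 1 and 0 to 2 of the 6 were called in the first 3. All genes called then ranged from 1 to 1275, 8 to 319 and 31 to 797. Within gates, UMI totals called 7, 5 and 7 of 40 pairs, beside 4.97%, 4.13% and 5.64% of all pairs. A stricter gate called 1 for Dnmt3a;Tnfr1KO against Dnmt3a, beside 1.15%. Omissions of a mouse gave 0 to 6, 0 to 3 and 0 to 4 of 40 pairs. The share of all pairs called in each omission was not counted, so nothing is read from these ranges. Of the exact tests on the lineage-balanced level, 0 passed with a stricter gate and 0 to 3 with a mouse left out. No share over all genes was counted for these settings. Between the highest and lowest of 10 parts by S-phase share in place of 3, Tet1 (0.017) and Tet3 (0.022) changed sign.

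With a replicate block, 153 genes (Dnmt3a against MxCre) and 41 (Dnmt3a;Tnfr1KO against Dnmt3a) were called over all cells, and 0 of the 6 in every comparison. Same-numbered mice did not deviate together more than others (r from -0.396 to 0.367 over 19 pairs, median -0.020, against a median of -0.020 over 54 other pairs). This does not settle whether the numbers pair the mice, as the labels do not give shared donors. With 3 or 4 mice a group, recipients of donors that are not given and gates rebuilt from markers, differences of the size seen in small gates could not be resolved.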

Other observations

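Dnmt3l, the catalytically inactive cofactor of de novo methylation best known from germ cells, was named after its values were seen. It stood at 4.92 ± 0.880 CPM of the gate's UMIs in granulocyte progenitor (SD, n = 14, range 3.75 to 6.59), 5.06 ± 2.11 in neutrophil (n = 12) and 2.33 ± 0.787 in monocyte cells (n = 14). In HSC-gated cells it stood at 0.0399 ± 0.104 CPM (n = 14), and 0 UMIs were counted in megakaryocyte, lymphoid-primed, mature B or T and NK cells, which does not show absence at this depth. Over all cells it stood at 1.21 to 2.24 scaled CPM in MxCre, 1.48 to 3.22 in Dnmt3a and 1.795 to 2.75 in Dnmt3a;Tnfr2KO mice. Libraries labelled Dnmt3a;Tnfr1KO gave 2.44 to 2.96.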
